A study of Mus musculus with 5 samples.

Results

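The cells described here are the beta cells, the insulin-producing cells of the pancreatic islet, of a mouse islet sample heterozygous for a knockout of Gcgr, the gene of the glucagon receptor. They are the cells that the authors typed as beta, by the insulin gene Ins1, and placed in clusters 1.1 and 1.3 of their graph-based clustering. Of the 1334 cells in the heterozygous table, 689 met this rule, 499 in cluster 1.1 and 190 in cluster 1.3; both islet tables together hold 4178 cells. Another cell typed as beta lay in a different cluster and was left out. After 4 likely doublets were removed, 496 and 189 cells stayed, and all values below are of these 685 cells. They made up 51.7% of the 1326 kept cells of the library (exact binomial interval 48.9 to 54.4), and cluster 1.3 held 27.6% (24.3 to 31.1) of them.

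The study made 3' single-cell RNA libraries from dissociated islets of Gcgr heterozygous and Gcgr homozygous knockout mice, 1 library of each, and from 3 tumors of homozygous knockouts, which are not analysed here. The knockout is given for the animal, with no cell type restriction named, and animals had standard chow and no treatment. Strain, sex, age and the number of animals behind an islet library are not given in the sources used here. Each genotype is 1 library, so no p-value is possible, and genotype and library cannot be told apart. All intervals cover counting error only, with none of the spread between animals.

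Beta cells store insulin with amylin (Iapp) in dense granules and release both when blood glucose rises. Glucose enters through the transporter Slc2a2 (GLUT2), and its metabolism closes ATP-sensitive potassium channels (Abcc8 and Kcnj11), which opens calcium channels and starts exocytosis. Making so much proinsulin loads the endoplasmic reticulum, and a beta cell keeps chaperones and the unfolded protein response active at rest.

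The unit of level is CPM: a gene's unique molecular identifiers (UMIs, 1 per captured transcript), summed over a set of cells and scaled to 1000000 UMIs in that set. Since 3' tags give 1 UMI per transcript whatever its length, they were not divided by length. The label was checked first. Of the 10 beta cell markers, 10 had UMIs in cluster 1.1 and 9 in cluster 1.3, and their summed level was 724288 CPM in cluster 1.1 and 670039 in cluster 1.3, against 55990 in alpha cells and 47867 in endothelial cells of the same library. Endothelial cells do not make insulin, and their level of a hormone is used below as the background that free RNA gives in this library. Mafa, a transcription factor that marks mature beta cells and drives insulin transcription, went against the label, with 4 UMIs in cluster 1.1 (0.354 CPM, 0.0963 to 0.905) and none in cluster 1.3, which allows up to 0.504 CPM. It also had no UMI in the beta cells of the homozygous library. Nkx6-1 and Slc2a2, the other defining markers, stood at 89.2 and 171 CPM in beta cells, against 1.17 and 10.5 CPM in endothelial cells.

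**Figure D1:**
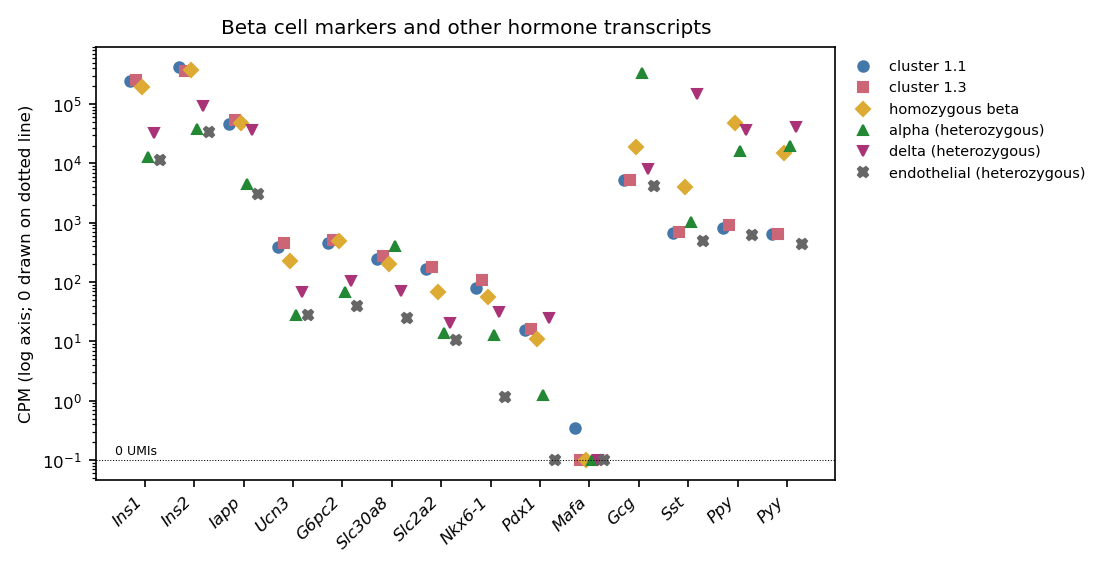
Levels (CPM, log axis) of 10 beta cell markers and 4 other hormone transcripts in the pooled UMIs of beta clusters 1.1 and 1.3, homozygous beta cells, and heterozygous alpha, delta and endothelial cells; a level of 0 is drawn on the dotted line. The clusters lie close together and above the endothelial cells for the markers other than Mafa, which is at or near 0 in every group.

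The promoters of 4 genes that the results turn on are shown, because 2 encode granule hormones among the 3 highest genes (Ins1 and Iapp; Ins2 is not shown) and 2 are the genes that passed the size rule between the clusters (C2cd4b and Taok2). They are the 250 bases before the RefSeq start on the gene's own strand, build GRCm38.p6, at chr19:52264047-52264296 (Ins1, + strand), chr6:142298175-142298424 (Iapp, + strand), chr9:67759187-67759436 (C2cd4b, + strand) and chr7:126884968-126885217 (Taok2, - strand). Letters run 5′ to 3′. Capitals mark 2 motifs, searched on both strands and therefore also shown as their reverse complements. The first is TAAT, the core bound by homeodomain factors such as Pdx1 and Nkx6-1. The second is CATCTG, an E-box of the kind bound by Neurod1 with its partners.
Ins1: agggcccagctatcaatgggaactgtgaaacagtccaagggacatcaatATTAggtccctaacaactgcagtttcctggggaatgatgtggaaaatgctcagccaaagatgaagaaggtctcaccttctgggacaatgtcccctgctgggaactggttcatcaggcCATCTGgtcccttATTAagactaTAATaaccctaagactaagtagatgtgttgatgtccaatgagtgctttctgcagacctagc
Iapp: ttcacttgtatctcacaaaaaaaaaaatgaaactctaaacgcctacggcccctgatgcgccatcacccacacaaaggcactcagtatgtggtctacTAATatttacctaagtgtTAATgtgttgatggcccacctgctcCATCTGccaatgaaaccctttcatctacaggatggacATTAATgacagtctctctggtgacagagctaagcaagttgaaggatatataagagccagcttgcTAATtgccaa
C2cd4b: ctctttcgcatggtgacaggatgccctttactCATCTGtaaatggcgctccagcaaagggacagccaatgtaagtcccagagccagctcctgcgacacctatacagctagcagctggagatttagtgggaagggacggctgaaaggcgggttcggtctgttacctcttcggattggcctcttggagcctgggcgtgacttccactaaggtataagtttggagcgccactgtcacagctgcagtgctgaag
Taok2: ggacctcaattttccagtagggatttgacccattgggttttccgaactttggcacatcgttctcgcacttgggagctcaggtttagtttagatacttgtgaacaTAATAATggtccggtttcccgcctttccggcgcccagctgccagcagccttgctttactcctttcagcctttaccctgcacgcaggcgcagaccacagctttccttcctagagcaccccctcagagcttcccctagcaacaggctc

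The 2 motifs share no overlapping match in these windows. The Ins1 window held 3 matches of TAAT and 1 of CATCTG, and the Iapp window 5 and 1. C2cd4b had 1 match of CATCTG and no TAAT, and Taok2 had 2 overlapping matches of TAAT and no CATCTG. Of all windows in the table, TAAT or its reverse complement occurred in 55.3% of 27025 RefSeq promoter windows of this length and CATCTG in 14.5%, so a match of TAAT by itself is common. Among the promoters of beta cell transcription factors in the table, 11 of 16 held TAAT and 1 of 16 held CATCTG. A match is a description of letters and not a binding site. The windows of C2cd4b and Taok2 lie inside those genes' full RefSeq extents.

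The transcripts of the insulin genes and Iapp led every other gene. Ins2 took 403038 CPM of beta cell UMIs, Ins1 252284 and Iapp 48853. The next gene was the nuclear RNA Malat1 at 9072 CPM, which was higher in endothelial cells (44016). Of the other genes among the 20 highest, 6 act in the secretory granule: Chga (chromogranin A, 4659 CPM), Pcsk1n (an inhibitor of prohormone convertases, 2485), the convertase Pcsk2 (2158), Scg2 (secretogranin II, 2135), Resp18 (1663) and the carboxypeptidase Cpe (1106). Gcg, which encodes proglucagon, stood at 5215 CPM and Ttr at 2233, and both were far higher in alpha cells (339537 and 49715).

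Transcripts of the other islet hormones were present in nearly every beta cell, at levels not far above those of endothelial cells. Gcg was at 5212 CPM in cluster 1.1, 5219 in cluster 1.3 and 4100 in endothelial cells. Sst (somatostatin) was at 684, 686 and 489 CPM, Ppy (pancreatic polypeptide) at 818, 926 and 631, and Pyy (peptide YY) at 643, 655 and 436. With each cell thinned to 5000 UMIs, Gcg was seen in 490 of 490 cells of cluster 1.1, 189 of 189 of cluster 1.3 and 67 of 67 endothelial cells, a share that is full in every group and so does not separate them.

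A few beta cells stood far above the rest. By a level chosen after the values were seen, more than 10000 CPM of Gcg, there were 11 cells in cluster 1.1 (2.22%) and 6 in cluster 1.3 (3.17%), the highest at 110325 and 17154 CPM. The 11 cells had a median of 10761 UMIs, under the 23724 of their cluster, and the 6 had 31017, against 32218. Sst passed 10000 CPM in 1 cell of each cluster. Doublets that the caller missed were not tested for these cells. Npy, a peptide related to Ppy and Pyy, was concentrated in few cells: 12.3% of cells in cluster 1.1 and 24.3% in cluster 1.3 had a UMI, while 5 cells held 68.3% of its 458 UMIs in cluster 1.1 and 5 held 51.3% of its 154 UMIs in cluster 1.3. The pooled level of Npy (40.5 and 25.9 CPM) thus rests largely on a handful of cells.

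The Gcgr transcript itself was low in beta cells, at 6.36 CPM in cluster 1.1 (4.98 to 8.01) and 8.74 in cluster 1.3 (6.53 to 11.5), against 2.34 in endothelial cells. After thinning, 3.27% of cells in cluster 1.1, 2.12% in cluster 1.3 and 0 of 67 endothelial cells (exact upper limit 5.36%) had a Gcgr UMI, so the share was not distinguishable from background at this depth; before thinning the median was 23724, 32218 and 3490 UMIs. Slc38a5, a glutamine transporter, was at 2.03 and 2.69 CPM, against 96.7 in alpha cells of the same library.

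The clusters differed in depth. The total the authors give per cell had a median of 23724 UMIs in cluster 1.1 (quartiles 17862 and 28189) and 32218 in cluster 1.3 (29011 and 35059), a ratio of 1.36. Genes detected per cell had medians of 3076.5 and 4260. Of the cells in cluster 1.3, 89.9% lay above the median UMIs of cluster 1.1 and 94.2% above its median of genes, while 0.403% of the cells of cluster 1.1 reached the median number of genes of cluster 1.3. Mapped reads per cell had medians of 182248 and 276243, so the cells of cluster 1.3 also had more reads.

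**Figure D2:**
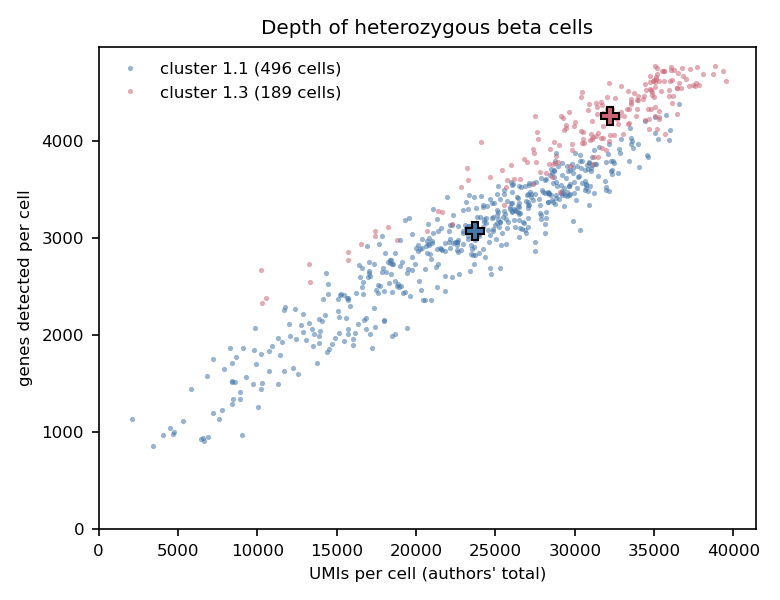
UMIs per cell (x axis) against genes detected per cell (y axis) for the 496 cells of cluster 1.1 and the 189 of cluster 1.3; crosses mark the medians. Cells of cluster 1.3 lie at the deep end, and at a like number of UMIs they lie above the cells of cluster 1.1.

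The clusters also differed in how their UMIs were divided. Summed over 8 hormone transcripts (Ins1, Ins2, Iapp, Gcg, Sst, Ppy, Pyy and Npy), the hormone share of a cell's UMIs had a median of 72.9% in cluster 1.1 and 67.6% in cluster 1.3. This split the cells more cleanly than the UMI total did, with 96.2% of cluster 1.1 above the median of cluster 1.3 and 0.529% of cluster 1.3 above the median of cluster 1.1. UMIs outside the hormone transcripts had medians of 6320 and 10507, a ratio of 1.66. The lowest hormone share, 19.2%, belonged to a cell of cluster 1.1.

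Cells with like numbers of mapped reads were then compared, in 5 bins from 100000 to 400000 reads. The median of Ins1 and Ins2 UMIs per cell in cluster 1.3 was 0.976 to 1.07 times that in cluster 1.1 in these bins. UMIs outside the hormones were 1.24 to 1.36 times as many in cluster 1.3, and genes detected 1.17 to 1.24 times. In cells with 200000 to 300000 mapped reads (159 and 79 cells), cluster 1.1 had medians of 7321 Ins1, 11777 Ins2 and 7642 non-hormone UMIs, and cluster 1.3 had 7717, 11665 and 9948. Ins2 UMIs had levelled off in these cells, with medians of 11415 to 12149 in the bins above 200000 reads, so near-equal insulin UMIs there do not show equal insulin RNA. In the bin from 100000 to 150000 reads, with 98 and 13 cells, the medians of Ins2 were 8624 and 7801 UMIs and those of Ins1 4107.5 and 4492. The bin from 50000 to 100000 reads had only 5 cells of cluster 1.3 and went the other way for insulin (0.716). With the non-hormone UMIs of each cell thinned to 3000 (46 and 0 shallower cells left out), the median number of genes was 1807 in cluster 1.1 and 1829 in cluster 1.3, whereas with all UMIs thinned to 5000 (6 and 0 left out) it was 970 and 1141. The gap in genes between clusters was narrow once the hormones were set aside.

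**Figure D3:**
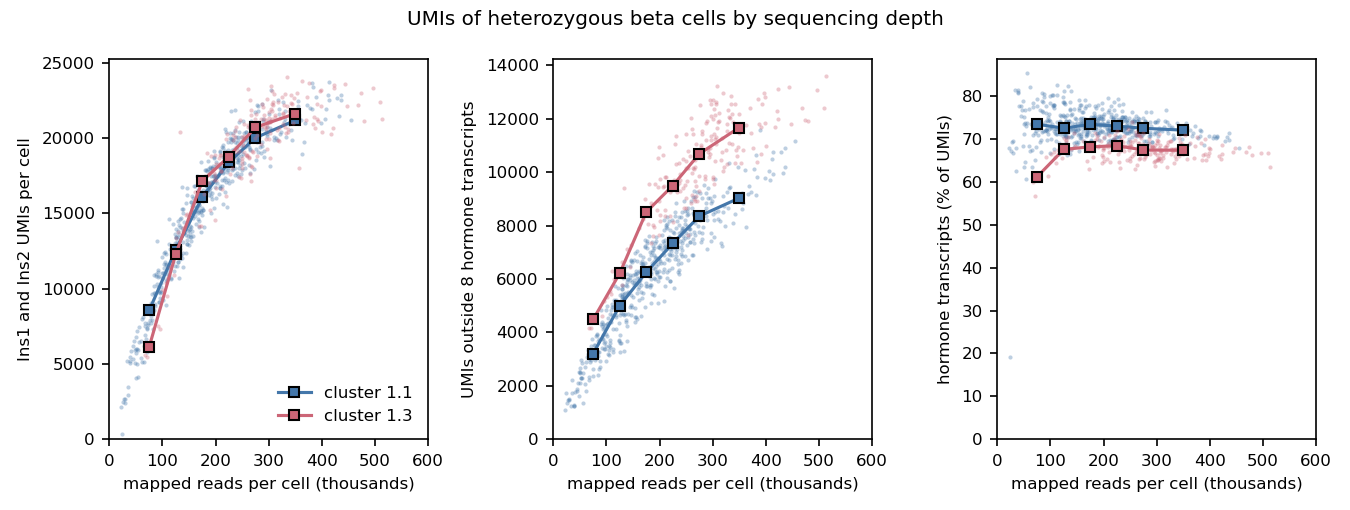
UMIs of Ins1 and Ins2 (left), UMIs outside 8 hormone transcripts (middle) and the hormone share of UMIs (right) against mapped reads per cell, with 1 point per cell and squares for the medians of 6 bins. Insulin UMIs of both clusters follow 1 curve that flattens with depth, except in the shallowest bin, while non-hormone UMIs are 1.24 to 1.40 times as many in cluster 1.3 in every bin.

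Insulin UMIs did not grow in step with depth, which limits any reading of the ratio of Ins1 to Ins2. Ins2 UMIs reached at most 13623 and 13621 per cell in clusters 1.1 and 1.3, and the most abundant gene of a cell had a median of 8.28 and 10.4 reads per UMI. The per-cell ratio of Ins1 to Ins2 had medians of 0.548 and 0.710, but it rose with mapped reads within each cluster, from 0.464 to 0.770 in cluster 1.1 and from 0.367 to 0.792 in cluster 1.3. Within the bins above 100000 reads, cluster 1.3 was 1.03 to 1.17 times cluster 1.1. Pooled, Ins2 was at 427046 CPM in cluster 1.1 and 357389 in cluster 1.3, a ratio of 0.837. Ins1 was at 249182 and 258181 CPM, a ratio of 1.04 that turned to 0.862 with the hormones left out of the total. Whether the ceiling on UMIs of a single gene makes this difference was not tested.

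Gene by gene, the clusters were then set side by side as a description, since the authors' clusters were made from the same cells. A gene was called different when it had 50 CPM or more in 1 cluster and the exact interval of its ratio lay beyond 1.5-fold. Of 1235 genes at that level, 2 were higher in cluster 1.3 (0.162% of genes tested) and none was lower (0%). No test over replicates exists. By the other settings tried, which tested 1233 to 19302 genes, 0 to 35 genes were higher and 0 to 3 lower. The most, 35 and 3, came with no level floor, of 19302 genes. With the 8 hormone transcripts left out of the total, 4211 genes were at that level. Of these, Slc29a4 was higher and Npy and Ogdhl were lower. The median log2 ratio over the 1235 genes was 0.28, and 97.4% of them had a ratio above 1. With hormones left out the median was 0.02, over the 4211 genes of that setting. Of the 1203 genes with a ratio above 1, 527 turned below 1 with hormones left out. The ratios thus depended on the total used, and those of single genes are given relative to the median of all genes.

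The 2 genes past the rule were C2cd4b, which encodes a protein with a calcium-dependent membrane-binding type of domain and is expressed in islet endocrine cells (RefSeq chr9:67716224-67760933, GRCm38.p6), and Taok2, a kinase of stress-activated MAP kinase pathways (chr7:126865674-126886296). C2cd4b was at 33.8 CPM in cluster 1.1 and 59.7 in cluster 1.3, a ratio of 1.77 (1.53 to 2.05), or 0.54 in log2 above the median gene. At least 1 UMI of it was found in 48.6% of cells of cluster 1.1 and 79.4% of cluster 1.3, and, thinned to 5000 UMIs, in 15.5% (12.4 to 19.0) and 25.4% (19.4 to 32.2), against 2.99% of endothelial cells. Taok2 was at 40.8 and 70.4 CPM, a ratio of 1.72 (1.51 to 1.97), 0.51 in log2 above the median gene; its thinned shares were 16.9% and 27.5%. Taok2 was also at 117 CPM in endothelial cells, with a thinned share of 41.8%. With hormones left out, the ratios of C2cd4b and Taok2 fell to 1.47 and 1.44, and neither passed the rule. In cells with 200000 to 300000 mapped reads and hormones left out they were 1.48 (1.17 to 1.86) and 1.68 (1.35 to 2.08). Within cluster 1.1, with hormones left out, both were lower in cells with more than 200000 mapped reads than in shallower ones. The ratios were 0.730 (0.594 to 0.897) for C2cd4b and 0.722 (0.599 to 0.871) for Taok2. Within cluster 1.3 they were 0.760 (0.575 to 1.02) and 0.814 (0.627 to 1.07), and both intervals held 1. The part of depth in the difference between the clusters was not tested. With doublets kept, only C2cd4b passed, and in thinned cells or as means over cells neither did.

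These genes were looked up in beta cells that the clustering of 1.1 and 1.3 did not use. Homozygous beta cells, mostly in the authors' clusters 2.4 (432 cells) and 2.7 (27 cells), held C2cd4b at 109 CPM (101 to 118) and Taok2 at 57.5 (51.4 to 64.1). In the smaller cluster 2.7 C2cd4b was at 187 CPM, against 106 in cluster 2.4 (ratio 1.77, 1.31 to 2.35), and Taok2 at 98.5, against 55.6 (1.77, 1.16 to 2.62). With hormones left out the ratios were 1.14 (0.845 to 1.52) and 1.15 (0.748 to 1.69), and both intervals held 1. That cluster also had a hormone share of 55.9%, against 71.5% in cluster 2.4, and held Ppy at 196526 CPM.

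Genes at the ends of the ranking were named after their values were seen. The lowest ratio was that of Ogdhl, a paralog of a citric acid cycle enzyme subunit, at 58.8 CPM in cluster 1.1 and 34.1 in cluster 1.3 (ratio 0.580, 0.494 to 0.680), followed by Pam, the enzyme that amidates peptide hormones, at 267 and 205 CPM (0.766, 0.716 to 0.819). Within cluster 1.1, between its 289 cells with up to 200000 mapped reads and its 207 deeper cells, with hormones left out, the deep cells held Ogdhl at 0.345 times (0.290 to 0.408) and Pam at 0.498 times (0.463 to 0.537) the level of the shallow cells. Within cluster 1.3 the same ratios were 0.539 (0.385 to 0.765) for Ogdhl and 0.915 (0.780 to 1.08) for Pam. In cells of 200000 to 300000 reads the ratio of cluster 1.3 to 1.1 was 0.883 for Ogdhl and 1.01 for Pam. Both lay below the median gene of that setting, which had a log2 ratio of 0.26. With hormones left out, these ratios were 0.743 (0.559 to 0.981) and 0.853 (0.761 to 0.957), against 0.483 and 0.637 over all cells. Per cell, the median of Pam was 175 CPM in cluster 1.1 and 171 in cluster 1.3, and the upper quartiles were 433 and 237. In CPM that were not set against the median gene, Pam thus differed in its upper range and hardly in the middle. Fh1 (fumarase) was at 55.4 CPM in cluster 1.1 and 52.4 in cluster 1.3 (ratio 0.946, 0.823 to 1.09), also below the median gene. With depth it went the other way. Deep cells held Fh1 at 1.95 times the shallow level in cluster 1.1 and 1.04 times (0.749 to 1.49) in cluster 1.3.

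**Figure D4:**
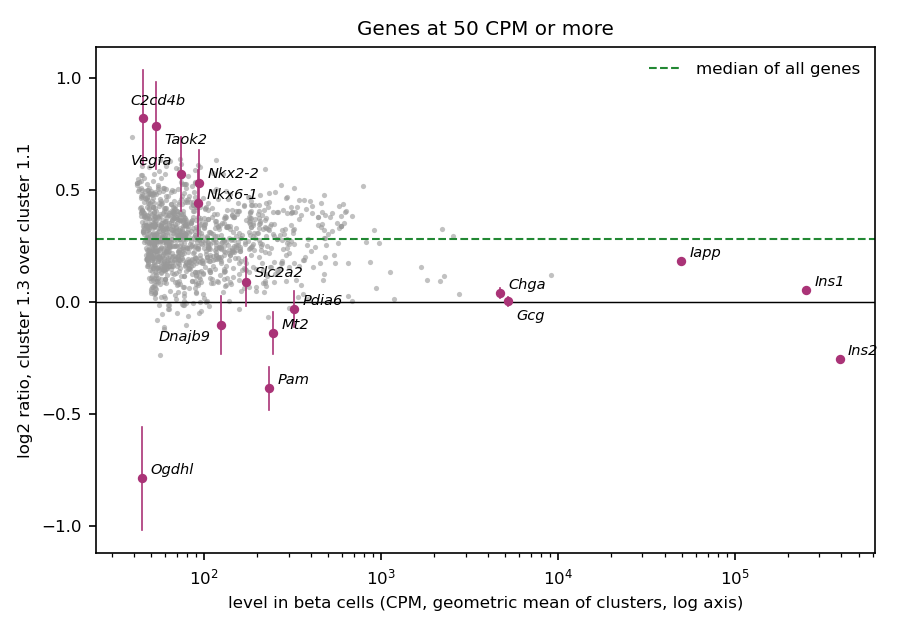
Log2 ratio of cluster 1.3 to cluster 1.1 (y axis) against level in CPM (x axis, log scale) for the 1235 genes at 50 CPM or more, with exact intervals (95%) as bars for 16 labelled genes. The dashed line is the median of all genes, 0.28, and Ins2, Ogdhl and Pam lie below 0 while C2cd4b and Taok2 lie highest.

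Gene lists chosen for islets were read against that median; no member of the 23 lists passed the size rule over all cells and UMIs. Under other settings some did: Cd81, Vegfa and Syt7 were higher in cells matched on UMIs and Slc7a14 in thinned cells, Npy was lower in depth-matched cells or with hormones left out, and Prdx4 was lower in cells matched on reads with hormones left out. Of the 21 beta cell transcription factors, 7 reached 50 CPM, and of those 6 lay above the median gene and Neurod1 lay at it. Nkx2-2, a homeodomain factor of endocrine cells, stood furthest above it, at 78.2 CPM in cluster 1.1 and 113 in cluster 1.3 (ratio 1.45, 1.31 to 1.60, relative log2 0.25). Nkx6-1, which keeps beta cell identity, was at 79.4 and 108 CPM (relative log2 0.16), Mlxipl, the glucose-sensing factor ChREBP, at 58.2 and 76.6 (0.12), and Pax6 at 167 and 213 (0.07). Insm1 (107 and 135 CPM, 0.05) and Isl1 (63.2 and 77.8 CPM, 0.02) were nearer the median. Pdx1, a master regulator of pancreas and insulin genes, stayed under 50 CPM at 15.6 and 16.5. Summed, with hormones left out, the 21 factors were 1.04 to 1.24 times as high in cluster 1.3 in each of the 5 bins of mapped reads. These ratios have no intervals, and the shallowest bins held only 13 and 18 cells of cluster 1.3. The part of depth in this difference was not tested.

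Glucose sensing genes differed among themselves. Of 5 members at 50 CPM or more, 4 lay below the median gene and 1, Abcc8, the sulfonylurea receptor subunit of the potassium channel, above it (177 and 235 CPM, relative log2 0.12). Slc2a2 was at 168 CPM in cluster 1.1 (160 to 175) and 179 in cluster 1.3 (168 to 190), a ratio of 1.06 and a relative log2 of -0.19. G6pc2, a glucose-6-phosphatase of beta cells, was at 448 and 515 CPM (-0.08), the cation channel Trpm5 at 132 and 155 (-0.06), and malate dehydrogenase Mdh1 at 170 and 187 (-0.15). The channel pore Kcnj11 (25.6 and 34.3 CPM) was under the level needed.

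Of the co-secreted peptides, Ucn3 (urocortin 3, which stimulates somatostatin release) was at 387 CPM (375 to 398) in cluster 1.1 and 459 (441 to 476) in cluster 1.3, near the median gene (relative log2 -0.04), and Iapp at 46714 and 52920 CPM (-0.10). Their ratios of 1.19 and 1.13 turned to 0.987 and 0.943 with the hormones left out. Per cell, Iapp had a median of 45146 CPM in cluster 1.1 (quartiles 37749 and 52475) and 51257 in cluster 1.3 (45484 and 59743), and the ranges of the clusters overlapped over most of their length. Granule proteins lay low: 8 of 9 granins and granule proteins at 50 CPM or more were below the median gene, with Chga at 4616 and 4741 CPM (-0.24) and Scg2 at 2087 and 2228 CPM (-0.19). Among prohormone processing genes 4 of 7 were below it. Summed with hormones left out, granule proteins were 0.708 to 0.890 times as high in cluster 1.3 over the 5 read bins.

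The unfolded protein response list, chaperones and sensors of the endoplasmic reticulum where proinsulin folds, had 12 of 14 members below the median gene and a median of -0.18 in log2. Members furthest below were the co-chaperone Dnajb9 (129 CPM in cluster 1.1, 120 in cluster 1.3, -0.38) and the disulfide isomerases Pdia3 (236 and 225 CPM, -0.35) and Pdia6 (327 and 320 CPM, -0.31). The chaperone Hspa5 (BiP) was at 239 and 254 CPM (-0.19), and the transcription factor Xbp1 stood next to the median gene at 106 and 128 CPM (-0.01). Within cluster 1.1, with hormones left out, Pdia6 was 1.53 times (1.43 to 1.64) and Hspa5 1.38 times (1.28 to 1.49) as high in the deep cells as in the shallow cells. Within cluster 1.3 the values were 1.49 (1.28 to 1.75) and 0.980 (0.846 to 1.14). Compared at like reads, the summed list was 0.752 to 0.978 times as high in cluster 1.3 in the 5 bins, lowest in the deepest bin (13600 against 10224 per 1000000 non-hormone UMIs).

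**Figure D5:**
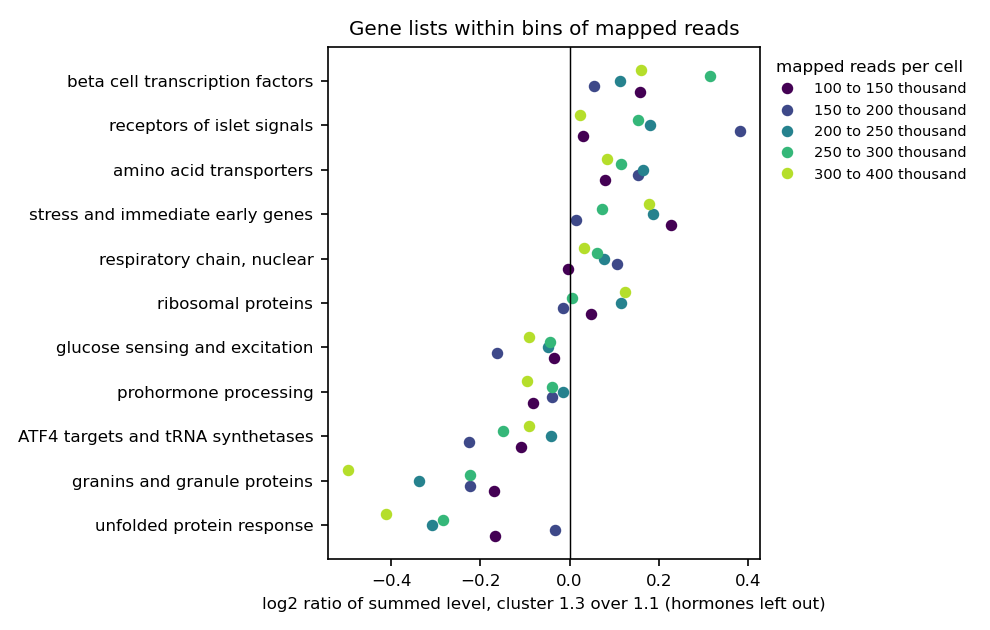
Log2 ratio of the summed level of 11 gene lists in cluster 1.3 over cluster 1.1, hormones left out, in 5 bins of mapped reads per cell (colors). Transcription factors, receptors, amino acid transporters, and stress and immediate early genes lie above 0 in all bins. Glucose sensing, prohormone processing, ATF4 targets, granule proteins and the unfolded protein response lie below 0 in all bins. Nuclear respiratory chain genes and ribosomal proteins lie on both sides of 0.

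Of the other lists, receptors of islet signals had 4 of 16 members at 50 CPM or more (Sstr3, Gipr, Ghr and Prlr). These 4 lay above the median gene, with a median of 0.16. The somatostatin receptor Sstr3 (36.1 and 53.4 CPM) met the level only through cluster 1.3, an entry that by itself favors a place above the median gene. Stress and immediate early genes had 8 of 12 above it, among them the transcription factors Jund (74.3 and 113 CPM) and Egr1 (98.0 and 139 CPM). Respiratory chain genes of the nucleus (13 of 22 above, median 0.04) and ribosomal proteins (14 of 21, 0.03) lay close to the median gene, and mitochondrially encoded genes lay under it (5 of 6 below, -0.19). Summed with hormones left out, the mitochondrially encoded genes were 0.824 to 1.09 times as high in cluster 1.3 over the 5 read bins. The authors' mitochondrial UMIs had a median of 0.527% of a cell's total in cluster 1.1 and 0.636% in cluster 1.3. Of the 15 genes known to be kept low in beta cells, none reached 50 CPM. Lactate dehydrogenase Ldha was at 1.15 and 1.85 CPM against 340 in endothelial cells, and the hexokinase Hk1 at 0.530 and 0.504 against 62.1. Cycling genes were near 0 (Mki67 had 1 UMI in cluster 1.1 and 3 in cluster 1.3).

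The remaining lists divided as follows among members at 50 CPM or more. Exocytosis genes had 5 of 9 above the median gene (Rab27a, a granule tethering protein, at 40.7 and 56.8 CPM), ATF4 targets 1 of 6, antioxidant and metal genes 3 of 12, and interferon and antigen presentation genes 1 of 5. Amino acid transporters had 2 of 3 above it, cell cycle genes 2 of 3, hypoxia and glycolysis genes 1 of 3, nuclear long noncoding RNAs 0 of 3, and the lists of immature and of heterogeneity genes 1 of 2 each. Insulin and its co-secreted peptides had 0 of 4, and no gene of cholesterol synthesis and uptake reached the level.

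Marker sums of other cell types were low in both clusters. Summed over their lists, alpha cell markers were at 7466 and 7686 CPM in clusters 1.1 and 1.3, delta at 729 and 734, endothelial at 39.2 and 40.3, stellate at 16.9 and 22.7, macrophage at 132 and 144, and acinar at 0.265 and 0. Pancreatic polypeptide cell markers were at 1461 and 1582 CPM, erythrocyte at 32.0 and 30.8, Schwann at 7.60 and 8.07, ductal at 3.71 and 5.38, cycling at 0.530 and 2.86, B cell at 1.77 and 2.69, epsilon at 1.15 and 1.68, and T cell at 0.884 and 2.35. Cpa1, Prss2 and Pnlip (acinar), Cftr (ductal) and Lepr (delta) had no UMI in either cluster, and the part of other cells in the ratios was not tested.

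Among cells of 1 cluster, thinned to 5000 UMIs, the variance was close to the mean for most genes. The ratio of variance to mean had a median of 1.03 in cluster 1.1 and 1.02 in cluster 1.3 over 1247 genes, with 95% of genes under 1.28 in both. Besides the hormones, Malat1 varied most (16.7 and 15.6), followed in cluster 1.1 by CYTB, a mitochondrially encoded cytochrome (6.34 and 3.78), the zinc-binding metallothionein Mt1 (6.18 and 3.18) and Chga (6.05 and 4.84). Mt1 had quartiles of 267 and 1253 CPM in cluster 1.1 and 492 and 1232 in cluster 1.3. Gcg gave the highest ratio in cluster 1.1 (42.0) and 4.30 in cluster 1.3.

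The 461 beta cells of the homozygous knockout library were set beside them, with the reservation above. They were shallower, with a median of 10777 UMIs against 26185 in heterozygous beta cells. Of 1199 genes at 50 CPM or more, 53 were higher (4.42%) and 74 lower (6.17%) in homozygous cells by the same size rule. Against cluster 1.1 alone the numbers were 69 higher and 59 lower, against cluster 1.3 alone 35 and 126, and with means over cells 82 and 67, so the split between directions depended on which heterozygous cells were used and how they were averaged. Gcgr had no UMI in homozygous beta cells, which allows up to 0.534 CPM.

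Among the 8 genes furthest above the rule were transcripts of other islet and exocrine cells, given as heterozygous and then homozygous beta cells: Ppy at 855 and 47355 CPM, Pyy at 647 and 14894, and Sst at 685 and 4073. The acinar protease precursor Ctrb1 had 1 and 483 UMIs, a ratio of 1484 with a counting interval of 265 to 58751. Endothelial cells of the homozygous library held these 4 at 10586, 5506, 2164 and 244 CPM, where heterozygous endothelial cells held 631, 436, 489 and 1.17, and their part in these differences was not tested. The other 4 genes belong to no such cell type list. Rgs2, a regulator of G protein signaling, was at 16.7 and 128 CPM (ratio 7.69, 6.70 to 8.85), Gatm, the first enzyme of creatine synthesis, at 8.17 and 55.2, Pcp4, a calmodulin-binding peptide, at 14.5 and 69.8, and Mdm1 at 21.7 and 95.6. Homozygous endothelial cells held these at 30.03, 8.83, 1.77 and 10.6 CPM. Slc38a5 was at 2.26 CPM in heterozygous and 44.2 in homozygous beta cells, with 28.3 in homozygous endothelial cells.

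Of the glucose sensing list, 3 of 5 tested members were lower in homozygous cells, where 6.17% of all genes were. Slc2a2 was at 171 and 68.5 CPM (ratio 0.400, 0.359 to 0.445), Abcc8 at 197 and 98.1 (0.497), Trpm5 at 140 and 33.5 (0.239) and Ucn3 at 412 and 223 (0.541), the first 3 from the glucose sensing list and Ucn3 from that of co-secreted peptides. Nkx6-1 was at 89.2 and 56.1 CPM (0.629, 0.555 to 0.711) and did not pass, and 0 of 7 transcription factors did. Of the prohormone processing genes 1 of 7 was lower, the convertase Pcsk1 (116 and 65.9 CPM). Of the 14 genes of immature beta cells only 3 reached 50 CPM in either genotype, and Rbp4 did so only in homozygous cells. All 3 were higher, where 4.42% of all genes were, and the rest of the list was not tested. Cd81 was at 57.2 and 150 CPM, Rbp4, also on the delta marker list, at 43.2 and 156, and Gpx3 at 156 and 501. Homozygous endothelial cells held these 3 at 2861, 108 and 422 CPM, and homozygous alpha cells at 425, 1498 and 5458; their part in the differences was not tested. Ins2 and Iapp differed little (0.940 and 0.993) and Ins1 more (0.770). Mapped reads per cell had medians of 56194 in homozygous and 208118 in heterozygous beta cells, and Ins1 over Ins2 rose with reads in both heterozygous clusters. That ratio had a per-cell median of 0.502 in homozygous beta cells, against 0.464 in cluster 1.1 cells with 50000 to 100000 reads. The part of depth in the difference of Ins1 was not tested. The genes furthest below the rule included, besides Trpm5, Cox6a2, a muscle-type subunit of cytochrome oxidase (169 and 17.8 CPM), Zc3h3 (56.1 and 9.79), Hs3st6 (51.9 and 13.2), Prss53, Nupr1 and Dnajc24. In the granule list Chgb was at 350 and 677 CPM and Scg3 at 395 and 683, both higher by the rule, and Sytl4, which tethers granules, was lower at 68.4 and 31.2.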

How the data were processed

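Each islet table holds normalized UMIs, a signal and not a count: per the file headers the authors gave each cell's total, which is a count, and the deposited values are the cell's UMIs divided by that total and multiplied by 9936. The submitters' processing notes name CASAVA 1.8, bcl2fastq 2.17, GSNAP 2013-10-10 and GRCm38; their roles are not given in the sources used here. Since gene values are not counts, whole UMIs were recovered by multiplying back (100% of values, tolerance 0.01): 22174810 for heterozygous islets, 34101553 for homozygous islets. The sums were 1.01 and 1.02 times the authors' totals (medians).

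Cells, types and clusters are the authors'. No cell had fewer than 1150 UMIs. Scrublet in scanpy 1.11.5 (expected rate 6%) removed 8 of 1334 heterozygous cells and 1 of 2844 homozygous ones. The tables share 0 cell identifiers. UMIs were pooled per cluster to CPM with exact Poisson intervals, and ratios got exact conditional binomial intervals (95%). A count of 0 allows 3 counts.

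Named genes were the 12 each way past the rule between clusters (8 each way between genotypes), up to 4 per list, the 20 highest, the insulin, transcription factor and glucose sensing lists, and Gcgr, Slc38a5, Gcg, Sst, Ppy and Pyy. Others, and the split of cluster 1.1 by depth, were chosen after values were seen. The members, the 23 gene lists and the 15 marker lists were chosen with earlier results of these data known. Of the 414 listed genes, 413 matched RefSeq by Entrez number; 3 list symbols were missing. Analyses used Python 3.11.15 with scipy 1.17.1. Alternatives tried were other totals, floors, folds, depth-matched or thinned cells, and doublets kept. Some genes that the naming rule allows are not reported here.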

Additional observations from a re-analysis of the deposited data

How the results depend on the processing

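The shares of clusters and the median depths moved by less than their intervals with doublets kept. The count of genes past the size rule between clusters, 2 of 1235, became 1 of 1233 with the mean over cells (Ogdhl, lower) and 1 of 1234 with doublets kept (C2cd4b). It was 16 of 1253 (15 higher, 1 lower) in 91 and 95 cells matched to the interquartile range of UMIs in cluster 1.3. With no level floor it was 38 of 19302, and with a 2-fold bound 0 of 1235. In cells of 200000 to 300000 mapped reads, a setting added after seeing the data, it was 5 of 1243 pooled and 4 of 1237 as a mean over cells. With hormones left out it was 3 of 4301 in those cells and 3 of 4211 over all cells. Between genotypes the 127 of 1199 genes tested became 326 of 4402 with hormones left out and 262 of 3248 with a floor of 20 CPM, a smaller share of more genes. Of the gene ratios under these settings 1038 stayed within their intervals and 612 moved, and of the list medians 174 and 36. With hormones left out 527 of 1203 gene ratios turned from above to below 1, among them Ins1, Iapp, Ucn3, Slc2a2 and G6pc2. Between homozygous clusters 2.7 and 2.4, C2cd4b moved from 1.77 to 1.14 and Taok2 from 1.77 to 1.15 with hormones left out, also added after seeing the data. The cause of these changes was not tested. No paired analysis was possible because each genotype is 1 library. The limit throughout is counting error in 1 library per genotype, and clusters that differ in depth.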
